A study of Mus musculus with 6 samples.

Results

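Transcripts of the cytosolic ribosomal proteins were examined in livers of wild-type (WT) mice and of Gα12 knockout mice. Gα12, the product of Gna12, is a G protein α subunit that signals from cell surface receptors. The set was taken by name: mouse genes whose RefSeq symbol is Rpl or Rps followed by a number. The stalk proteins Rplp0, Rplp1 and Rplp2 and Rpsa were included. The ribosomal S6 kinases and symbols marked as pseudogenes were left out. Of 95 such symbols, 86 had a probe on the array, with 175 probes in all. Probes that the scanner software called well above background on 3 or more of 6 arrays were kept, which left 167 probes of 83 genes among 23132 probes and 12297 named genes kept in all. Of the 83 genes, 49 have large-subunit and 34 small-subunit names. The name also brings in Rps19bp1, whose product binds Rps19 and the deacetylase SIRT1 and is no ribosomal subunit, and the retrogene Rps23rg1. It brings in Rps4l too, whose matched RefSeq transcript is noncoding.

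A cytosolic ribosome is built from a small subunit, which reads the mRNA, and a large subunit, which joins the amino acids, each made of ribosomal RNA and many proteins that are needed in equal numbers. Most of the proteins are encoded by single-copy genes with many processed pseudogenes. Their mRNAs share a terminal oligopyrimidine (TOP) motif, a C followed by a run of pyrimidines at the start of the transcript, through which mTOR signalling and LARP1 set how much of the mRNA is translated. The liver makes large amounts of secreted protein, and its ribosome content is known to fall during fasting.

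The mice were males of 8 weeks, fed chow and killed after being fasted overnight. Their strain is given as C57BL/6 and 129/Sv, with 95% C57BL/6 background. Each group had 3 livers, and both groups shared the fast. RNA (0.5 µg) was labelled with Cy3 and hybridised to 1-colour Agilent mouse arrays, and each array is called here by its genotype (KO for the Gα12 knockout) and the replicate number of its label. What the deletion removes of Gna12 is not given. Its probe was well above background on 1 of the 6 arrays and read -3.48, -4.55 and -0.89 in WT 1 to 3 and -4.91, -4.62 and -3.47 in KO 1 to 3, so that it separated WT 3 alone from the knockout. All levels are log2 intensities relative to the 75th percentile of the same array, so that a level of 0 is at that percentile and a difference of 1 is a 2-fold difference. Levels of different probes are not comparable with each other, and only differences between arrays are read. The number of arrays limits the precision.

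WT 1 and WT 2 stood apart from the other 4 arrays. Over the kept probes they correlated with each other at 0.97 and with the knockout arrays at 0.87 to 0.93, whereas WT 3 correlated with the knockout arrays at 0.97 to 0.98. All 6 arrays lay on 1 slide with WT in row 1 and KO in row 2, so that genotype cannot be told apart from slide row. WT 3 had 28752 probes well above background, against 20953 to 23530 on the other arrays. Non-uniform spots numbered 2 to 6 on the WT and 98 to 158 on the KO arrays. The scanner software's background error was 5.97 to 8.60 and 10.47 to 13.27. The part of these in the levels was not tested. The defining hepatocyte transcripts were measured on every array, as 8 of 8 markers. In liver tissue, a difference in the number of cells of a type and in the RNA per cell cannot be told apart.

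Promoter sequences are shown for members that the results below turn on, because a TOP motif lies at the start of a transcript. Whether these sequences bear on the levels was not tested. Each window runs from 45 bases before to 20 bases after the annotated start, on the gene's own strand, from RefSeq's GRCm38.p6 table. Capitals mark the pyrimidine runs CTCTTT or CTTTCC and the ETS-type motif CCGGAAG. Rps6, whose protein is the classical phosphorylation target of the S6 kinases, and the paralogs Rps27 and Rps27l had differences, knockout minus WT, of -0.89, -0.73 and -0.76. Rpl31 had the lowest large-subunit difference, Rpl26 had probes that disagreed, and Rps2 and Rps19 are the exceptions of the small subunit.
Rps6, chr4:86857348-86857412, minus strand: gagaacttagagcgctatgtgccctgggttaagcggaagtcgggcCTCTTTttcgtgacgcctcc
Rps27, chr3:90213629-90213693, minus strand: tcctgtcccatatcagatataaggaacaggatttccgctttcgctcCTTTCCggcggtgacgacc
Rps27l, chr9:66946041-66946105, plus strand, the first of 2 promoters: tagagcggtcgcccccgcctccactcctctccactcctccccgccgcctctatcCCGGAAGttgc
Rpl31, chr1:39367806-39367870, plus strand: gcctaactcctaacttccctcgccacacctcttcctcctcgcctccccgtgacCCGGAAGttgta
Rpl26, chr11:68901521-68901585, plus strand: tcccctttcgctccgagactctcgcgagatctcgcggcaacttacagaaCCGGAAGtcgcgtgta
Rps2, chr17:24720018-24720082, plus strand: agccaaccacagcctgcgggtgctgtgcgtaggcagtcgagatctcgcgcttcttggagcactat
Rps19, chr7:24884547-24884611, plus strand, the first of 3 promoters: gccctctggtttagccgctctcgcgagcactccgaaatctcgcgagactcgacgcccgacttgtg

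In the table, 73 promoters belonged to 62 of the 83 genes, and all 32851 promoters of the table served as the comparison. The run CTCTTT, on the transcribed strand within 25 bases of the start on either side, was found in 9 member promoters (12.3%, against 1.93% of all). CTTTCC in the same window was found in 10 (13.7%, against 2.46%), and one or the other in 15 (20.5%, against 4.12%). CTTCC, which also lies within the complement of CCGGAAG, was found there in 19 (26% against 10.6%). CCGGAAG on either strand of the whole window, from 250 bases before to 50 after the start, was found in 26 (35.6% against 8.86%), and the Sp1-type GGGCGG likewise in 45 (61.6% against 35.7%). The E-box CACGTG was found in 8 (11% against 7.15%) and the TATA-type TATAAA, within 40 bases before the start, in 1 (1.37% against 2.31%). AAGATGG, from 25 bases before to 50 after the start, was found in 4 (5.48% against 1.48%). These motifs were chosen after some of the windows had been seen, the matches are descriptions of letters, and the annotated starts need not be those used in liver.

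As a set, the ribosomal protein transcripts were highest in WT 1, next in WT 2, and close to each other in WT 3 and in the 3 knockout livers. Over the 83 genes, each taken by its brightest probe, the median level was 8.92, 8.40 and 7.35 in WT 1, WT 2 and WT 3 and 7.62, 7.59 and 7.35 in KO 1, KO 2 and KO 3. WT 1 and WT 2 therefore lay above all 4 others, and WT 3 lay at the level of KO 3. Taken gene by gene, the level relative to the knockout mean was higher by a median of 1.34 in WT 1 (2.54-fold) and of 0.78 in WT 2 (1.72-fold). In WT 3 the same median was -0.23 (1.17-fold lower). The knockout livers differed little among themselves, at medians of 0.11, 0.05 and -0.16.

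**Figure D1:**
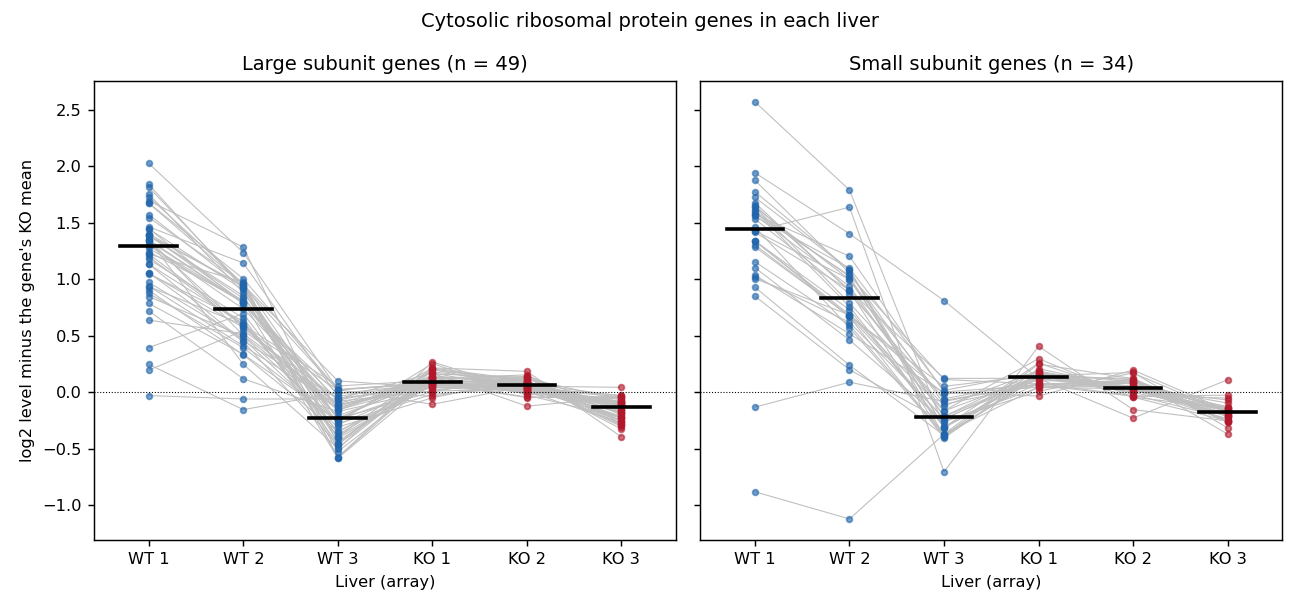
Each point is 1 ribosomal protein gene in 1 liver, as its log2 level minus its own mean over the 3 knockout livers, with large-subunit genes (n = 49) on the left and small-subunit genes (n = 34) on the right; grey lines join a gene and black bars are medians. Nearly all genes lie above 0 in WT 1 and WT 2 and near or below 0 in WT 3. Rps19, by its only kept probe, is the gene far below 0 in WT 1 and WT 2.

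The genes moved in a narrower band than the array as a whole, in a comparison not matched for brightness. Their median level in WT 1 was 8.92, against 1.77 over all named genes. In WT 1 the interquartile range of their shifts was 0.52 on the log2 scale, against 1.56 over all named genes, and in WT 2 it was 0.39 against 1.27. In WT 1, 66 of the 83 genes (79.5%) lay over 1 log2 unit above their knockout mean, against 42.8% of all named genes. In WT 2 only 14 (16.9%) did, against 35.1%. In WT 3 no member gene was more than 1 log2 unit from its knockout mean on either side. All named genes together had median shifts of 0.82, 0.71 and 0.03 in WT 1, WT 2 and WT 3, so that part of the members' shift was shared with the bulk of kept genes. How far the members lay above depended on the scaling: over the 167 probes the median shift in WT 1 was 1.35 with the 75th percentile, 1.17 with the array median, 1.22 with another background correction and 0.35 after quantile normalization. In WT 2 the quantile-normalized shift was 0.12 and in WT 3 it was 0.04.

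The order of the livers was shared by most members. WT 1 and WT 2 were both above the 4 other livers for 79 of 83 genes, against 59.2% of all named genes, and for 152 of 167 probes, against 48.4% of all kept probes. After quantile normalization they were both above for 78 of the 167 probes (46.7%), against 37.8% of all kept probes. On the 75th percentile scale they were both below the 4 others for 1 gene (background 16.4%) and 6 probes (21.4%). WT 1 was above WT 2 for 79 genes, and it was the highest of the 6 livers for 77 genes (background 46.3%) and 152 probes (43.6%). WT 3 lay below all 3 knockout livers for 49 genes (background 26.8%), within their range for 31 (40.6%) and above them for 3 (32.6%). It was the lowest of the 6 livers for 47 genes (21.5%) and 81 probes (17.4%). The 3 genes with WT 3 above the knockout were Rps23rg1, Rps4x and Rpl23a, the genes whose groups did not overlap with the knockout lower.

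The comparison of the genotypes asked whether ribosomal protein transcripts differ in level in liver without Gα12. The median difference, knockout minus WT, was -0.60 over the 83 genes (interquartile range -0.78 to -0.46) and -0.66 over the 167 probes, against -0.49 over all named genes and -0.38 over all kept probes. The difference was below 0 for 80 of 83 genes and 157 of 167 probes, against 72.3% and 65.5% in all. After quantile normalization the median was -0.16 over the member probes and -0.15 over all kept probes. None of the 167 probes passed limma's test at an adjusted p of 0.05 (0% of all probes passed), and the lowest adjusted p of limma among them was 0.225. At an unadjusted p under 0.05, limma gave 9 member probes lower (background 15.4%) and 1 higher (5.62%) in the knockout. Of the 9, 1 dim Rpl21 probe was well above background on the 3 WT arrays and on no knockout array, so it passed the filter only through the WT. Among the genes by their brightest probe it gave 1 lower (16.6%) and 0 higher (3.98%). The groups did not overlap for 24 probes lower (18.8%) and 3 higher (5.52%), and for 3 genes lower (21.1%) and 1 higher (4.42%).

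The spread of the WT livers was wide. The median SD of a gene was 0.77 over the 3 WT livers and 0.15 over the 3 knockout livers, and the WT SD was the larger in 82 of 83 genes. Over all named genes the medians were 0.65 and 0.19. Without WT 3, 131 member probes passed limma's adjusted threshold as lower (background 41.2%) and 5 as higher (15.5%), and the members' median was -1.07. Without WT 1 and WT 2, the median over the member probes was 0.16, turned in direction, with 42 of 167 probes below 0 against 55.1% of all probes. In that comparison of WT 3 with the knockout no probe passed limma's adjusted threshold, and 4 member probes lower (background 4.77%) and 1 higher (2.6%) had an unadjusted p under 0.05 (Rps6, Rpl21, Rps23rg1 and Rps13 lower, Rpl17 higher), with a spread estimated from the knockout livers and shared across probes.

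**Figure D2:**
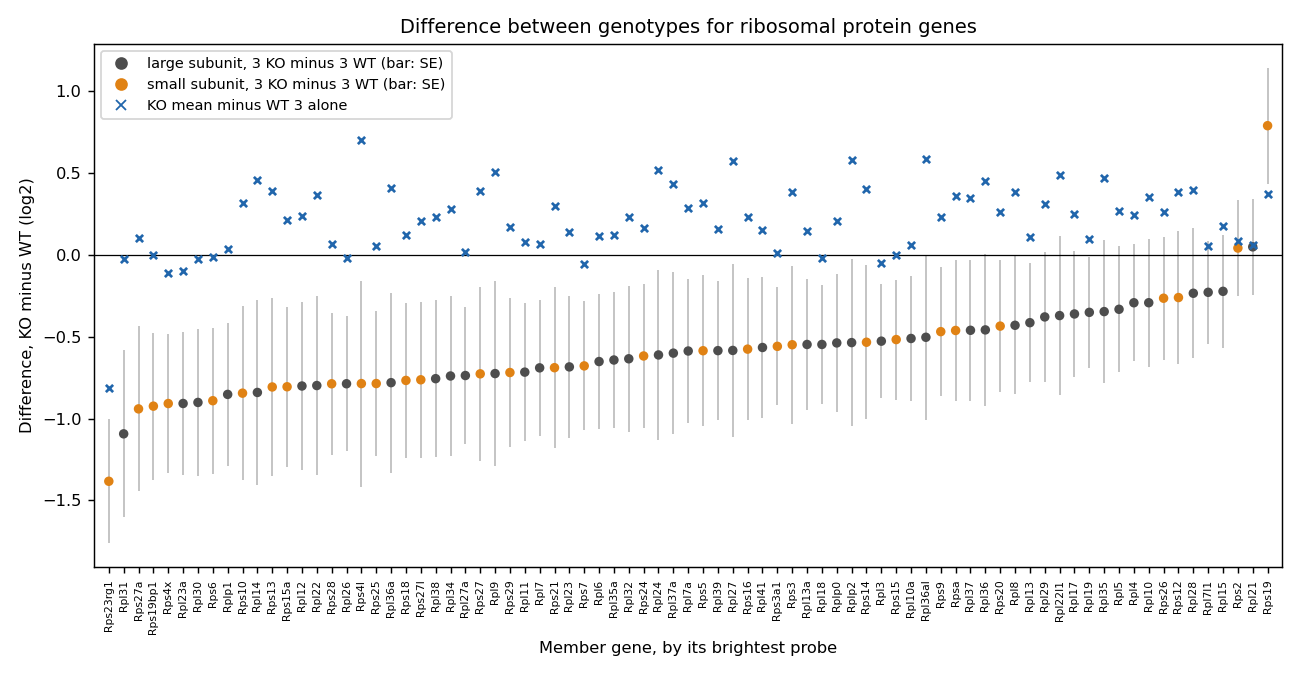
Points give the difference, knockout minus WT, of 79 of the 83 genes by the brightest probe, on a log2 scale with bars of 1 SE from limma and ordered by size; crosses give the knockout mean minus WT 3 alone. The points run from -1.38 (Rps23rg1) to 0.79 (Rps19) with 76 below 0, while most crosses lie above 0.

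Among the large-subunit genes the median difference was -0.57, and the 5 lowest were Rpl31, Rpl23a, Rpl30, Rplp1 and Rpl14. Rpl31, a protein at the rim of the exit tunnel, read 8.88, 8.09 and 6.88 in WT 1 to 3 against 6.94, 6.85 and 6.78 in the knockout. The difference was -1.09 ± 0.51 (SE, 3 against 3; limma adjusted p = 0.241). Its WT 3 value lay among the knockout values. The other 3 probes of Rpl31 gave -1.10, -1.20 and -0.96, so that its 4 probes behaved alike.

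Rpl23a, which lies at the tunnel exit where nascent chains meet the signal recognition particle, read 8.64, 7.92 and 7.07 in WT and 7.01, 6.98 and 6.91 in the knockout. All WT values were above all knockout values, WT 3 by the narrowest margin, and the difference was -0.91 ± 0.44 (SE; limma adjusted p = 0.245). Rpl30, which regulates the splicing of its own transcript in yeast, read 8.76, 8.09 and 7.11 against 6.98, 7.14 and 7.13 (difference -0.90). Rpl14 read 9.69, 9.28 and 7.54 against 8.20, 8.03 and 7.77, with WT 3 the lowest of the 6 and the largest WT SD of the large subunit (1.14). Its difference of -0.84 was smaller than the WT SD.

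The stalk of the large subunit, which recruits the GTPases of translation, is made of Rplp0 and of pairs of Rplp1 and Rplp2. Rplp1 read 9.65, 9.33 and 8.15 in WT and 8.27, 8.14 and 8.15 in the knockout (difference -0.85, limma adjusted p = 0.254). Rplp2 read 9.61, 9.36 and 7.81 against 8.55, 8.52 and 8.10 (-0.54, adjusted p of limma 0.47). Rplp0 read 9.67, 9.05 and 8.24 against 8.55, 8.53 and 8.27 (-0.54, adjusted p of limma 0.388). In each of the 3, WT 1 and WT 2 were above the other 4 livers, and WT 3 was the lowest of the 6 for Rplp0 and Rplp2.

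Only 1 large-subunit gene, Rpl21, had a difference above 0 by its brightest probe, at 5.98, 5.95 and 5.95 in WT and 6.18, 6.03 and 5.83 in the knockout (0.05, limma adjusted p = 0.915). Its WT SD of 0.02 was the smallest of all members. WT 1 and WT 2 were not both above the other 4 livers by this probe. By the dimmer Rpl21 probes, with differences of -1.36 and -1.17, they were.

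Among the small-subunit genes the median difference was -0.72, and Rps23rg1, Rps27a, Rps19bp1 and Rps4x were among the lowest. Rps23rg1 is an expressed retrocopy of Rps23, a core protein of the decoding centre for which no probe was matched here. It read 1.97, 1.43 and 0.84 in WT and 0.15, -0.20 and 0.14 in the knockout. All WT livers were higher, WT 3 included, and the difference of -1.38 ± 0.38 (SE, 3 against 3; 2.61-fold lower) had an unadjusted p of 0.00705 and an adjusted p of 0.235 in limma. WT 3 alone lay 0.81 above the knockout mean.

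Rps27a, made as a fusion of ubiquitin and a small-subunit protein, read 10.07, 9.25 and 8.09 in WT and 8.26, 8.16 and 8.17 in the knockout (-0.94). Rps4x read 7.84, 7.29 and 6.37 against 6.33, 6.30 and 6.13, so that its groups did not overlap, and the difference was -0.91 ± 0.42 (SE; limma adjusted p = 0.241). Rps19bp1 read 5.33, 4.96 and 3.76 against 3.82, 3.85 and 3.60 (-0.92), and so kept the order of the ribosomal subunits although it is not one.

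Rps19 went the other way by its only kept probe, so that no other probe of the gene could be set beside it. This small-subunit protein, needed for maturation of the ribosomal RNA and mutated in Diamond-Blackfan anaemia, read 5.13, 4.89 and 5.64 in WT and 6.26, 6.13 and 5.64 in the knockout. WT 1 and WT 2 were the lowest livers, WT 3 and KO 3 were at the same level to 2 decimals, and the difference was 0.79 ± 0.35 (SE; limma adjusted p = 0.239). Without WT 3 it was 1.0 and passed limma's threshold (adjusted p = 0.0227). In that comparison 56.7% of all probes passed, 15.5% of all as higher.

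Rps2, the other small-subunit gene above 0, read 7.41, 7.63 and 7.46 in WT and 7.62, 7.51 and 7.49 in the knockout by its brightest probe (0.04, limma adjusted p = 0.927). Its second probe read 8.70, 8.37 and 6.58 against 7.05, 7.04 and 6.84 (-0.90), the order seen in most members. Rpsa, the laminin receptor precursor that sits on the small subunit, read 9.73, 9.17 and 8.21 against 8.62, 8.67 and 8.44 (-0.46). Here WT 3 was again the lowest of the 6.

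Most other members filled the space between. Rpl12 and Rpl15 of the large subunit, for example, had differences of -0.80 and -0.22, and Rps10 and Rps12 of the small subunit -0.84 and -0.26, as genes chosen after their values were seen. WT 1 and WT 2 were both above the other 4 livers for 47 of 49 large-subunit and 32 of 34 small-subunit genes. WT 3 lay below all knockout livers for 28 large-subunit and 21 small-subunit genes. The median shift from the knockout mean in WT 1 was 1.29 for the large and 1.44 for the small subunit.

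Rpl5 and Rpl11 form a complex with ribosomal RNA that also binds MDM2, the ubiquitin ligase of p53, and were singled out after their values were seen. Rpl11 read 9.98, 9.42 and 8.51 in WT and 8.60, 8.62 and 8.55 in the knockout (-0.72 ± 0.42, SE). Rpl5 read 6.40, 5.92 and 5.26 against 5.78, 5.50 and 5.30 (-0.33 ± 0.39, SE). Both had WT 1 and WT 2 as the high livers and WT 3 as the lowest, and for Rpl5 the SE was larger than the difference.

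Several members have a paralog that the rule also brought in, and the differences of each pair named here had the same direction on the 75th percentile scale. Rps27 and Rps27l, a p53-responsive copy, had differences of -0.73 and -0.76. Rpl22 and Rpl22l1, a copy that Rpl22 is known to repress, had -0.80 and -0.37, and Rpl36a and Rpl36al had -0.78 and -0.50. The SE of these differences lay between 0.48 and 0.55, and the difference within a pair was not tested. After quantile normalization the direction was no longer shared in the last 2 pairs: Rpl22 was at -0.25 and Rpl22l1 at 0.18, and Rpl36a at -0.22 and Rpl36al at 0.022. Rps27 and Rps27l were then at -0.31 and -0.22.

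Rps4l is a copy of Rps4x whose matched transcript is noncoding. Rps4l read 4.60, 4.81 and 2.47 in WT and 3.58, 3.02 and 2.92 in the knockout (-0.79 with a WT SD of 1.29). WT 3 was its lowest liver, by 0.70 below the knockout mean. Rpl7 and the distant copy Rpl7l1, which acts in ribosome assembly, had differences of -0.69 and -0.23. Rpl3, Rpl10 and Rpl39, whose copies are known from muscle and testis, had -0.53, -0.29 and -0.58. None of the copies Rpl3l, Rpl10l and Rpl39l was kept. The probe of Rpl3l and that of Rpl39l were well above background on no array, and of 2 Rpl10l probes 1 was on 1 array (KO 2, -1.13).

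Fau also makes a ribosomal protein, as a fusion with a ubiquitin-like protein, but its name leaves it out of the set. It read 10.26, 9.68 and 8.78 in WT and 9.43, 9.34 and 8.89 in the knockout (-0.35). It had WT 1 highest and WT 3 lowest, as most members did.

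Of the 83 genes, 50 had at least 2 kept probes, and for most of them the probes differed little. The range of differences over a gene's probes had a median of 0.18 log2 units, against 0.76 over the 2737 named genes with several probes. For 28 genes (56%) the range was under 0.25, against 22.1% of all. Probes of opposite sign were found in 9 genes (18%), against 43.1%, and a range over 1 in 7 (14%), against 39.3%. These shares were not matched for brightness either. Ribosomal protein genes have many near-identical processed copies in the genome, the probe sequences were not used here, and how far a probe reads such copies was not tested. A probe of the pseudogene Rpl34-ps1, which the rule leaves out, read 6.69, 6.15 and 5.0 in WT and 5.17, 5.18 and 5.23 in the knockout, much like the members. A probe of Rps15a-ps6 read -1.99, -1.92 and -1.86 against -1.21, -0.68 and -0.92, in the other direction.

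**Figure D3:**
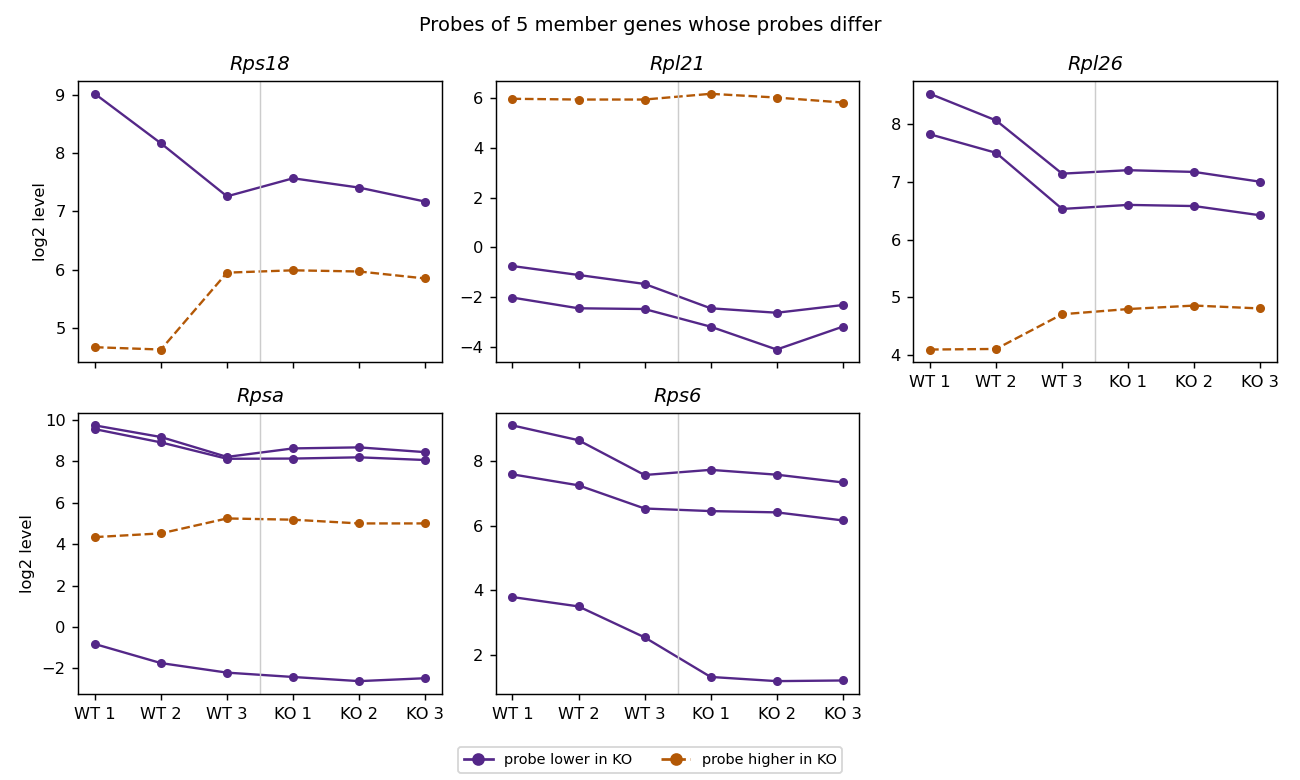
Log2 levels of every kept probe in the 6 livers for 5 member genes whose probes differ (Rps18, Rpl21, Rpl26, Rpsa and Rps6), with solid purple lines for probes lower and dashed orange lines for probes higher in the knockout, and a grey line between the genotypes. In Rps18, Rpl26 and Rpsa 1 dimmer probe runs upward from WT 1 to the knockout while the bright probes run downward.

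Rps18 had 1 probe at 9.02, 8.17 and 7.26 against 7.57, 7.41 and 7.17 (-0.77) and 1 at 4.67, 4.63 and 5.95 against 5.99, 5.97 and 5.85 (0.86). The mean of both was 0.04, so that its direction rests on the choice of probe. Rpl26, which binds p53 mRNA besides its place at the tunnel exit, had bright probes at -0.79 and -0.75 and a dimmer one at 4.10, 4.11 and 4.71 against 4.80, 4.86 and 4.81 (0.51). Rpsa had a dimmer probe at 4.34, 4.52 and 5.24 against 5.18, 5.0 and 5.0 (0.36). In these probes WT 3 lay with the knockout livers and WT 1 and WT 2 lay below.

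The probes of Rps6 shared a direction but not a size. They read 9.12, 8.66 and 7.58 against 7.74, 7.59 and 7.35 (-0.89), 7.60, 7.26 and 6.54 against 6.46, 6.42 and 6.17 (-0.78), and 3.79, 3.50 and 2.54 against 1.31, 1.18 and 1.20. The last had the lowest p of all member probes in limma (-2.04 ± 0.40, SE; unadjusted p = 0.000995, adjusted p = 0.225), and all 3 WT livers were above the knockout. With WT 3 as the only WT liver it was -1.31 (unadjusted p of limma 0.0023, adjusted p 0.594). In the first 2 probes WT 3 was at the knockout level or little above.

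The same was seen in a probe of Rps13, singled out here after its values were seen, which read 8.75, 8.57 and 7.28 in WT and 6.68, 6.63 and 6.23 in the knockout (-1.69 ± 0.45, SE; unadjusted p = 0.00622, adjusted p = 0.235 in limma). The brighter Rps13 probe read 8.92, 8.28 and 6.81 against 7.33, 7.27 and 6.99 (-0.81), with WT 3 below the knockout. Other probes lower at an unadjusted p under 0.05 belonged to Rpl21, Rpl22, Rpl27a, Rpl31, Rps24 and Rps23rg1. Of these only the Rps23rg1 probe was its gene's brightest.

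The edge of the filter touched 3 kept probes. The other 164 were well above background on all 6 arrays. A dim Rpl21 probe that passed on 3 arrays read -2.02, -2.45 and -2.48 in WT and -3.19, -4.11 and -3.19 in the knockout, and another Rpl21 probe that passed on 5 read -0.75, -1.11 and -1.47 against -2.45, -2.63 and -2.32. A dim Rpsa probe passed on 5, at -0.82, -1.74 and -2.20 against -2.41, -2.61 and -2.47. Just outside, a probe of Rpl6 that passed on 1 array read -3.90, -3.41 and -3.11 in WT against -3.70, -3.34 and -2.92 in the knockout, and one of Rps27a read -3.81, -4.36 and -3.72 against -2.83, -4.70 and -4.61. The brighter probes of both genes were kept.

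In 4 other gene lists of protein synthesis and turnover, the median shift from the knockout mean was higher in WT 1 and WT 2 than in the other 4 livers. The same held for the members and for all named genes. The median shift from the knockout mean in WT 1 was 1.34 for the cytosolic ribosomal proteins, 1.06 for 77 mitochondrial ribosomal protein genes, 0.998 for 19 translation factors and other genes with TOP mRNAs, 0.90 for 37 proteasome subunit genes and 0.53 for 43 ribosome biogenesis genes. In WT 2 the medians lay between 0.48 and 0.80, with the members (0.78) just below the mitochondrial ribosomal proteins and the proteasome (both 0.80). In WT 3 the medians lay between -0.23 and -0.12. All named genes had 0.82, 0.71 and 0.03 in WT 1 to 3, so that ribosome biogenesis lay below them in each. The TOP list, at 0.66, lay below them in WT 2. The lists were not tested against each other.

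**Figure D4:**
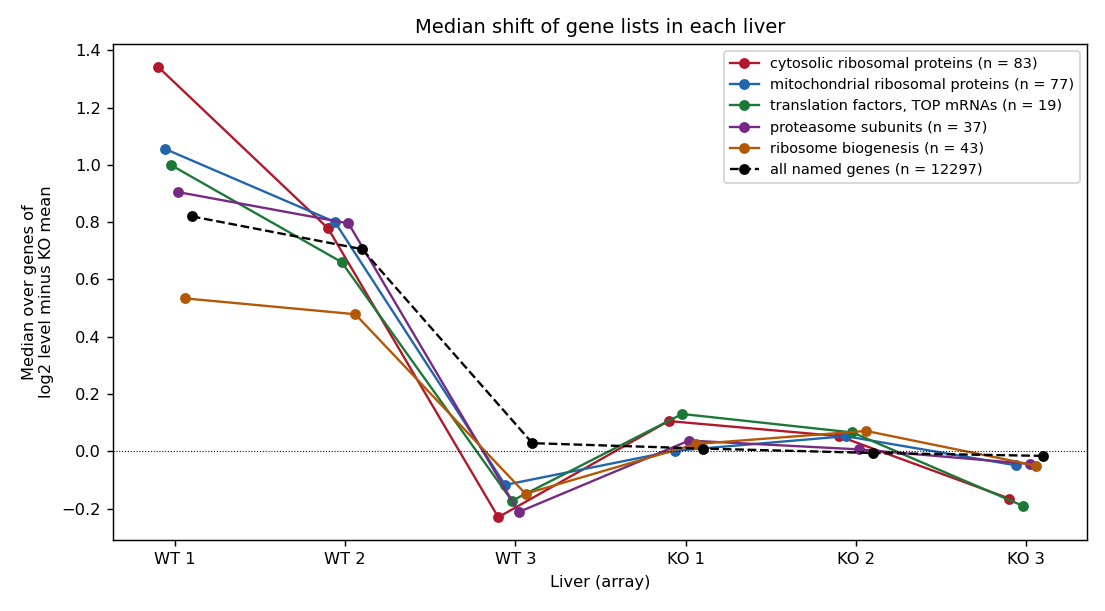
Median over the genes of each list of the log2 level minus the gene's knockout mean, in each liver, for 5 lists and for all named genes (black, dashed). The cytosolic ribosomal proteins are highest in WT 1 at 1.34, against 0.82 for all named genes. In WT 2 they lie at 0.78, with the mitochondrial ribosomal proteins and the proteasome subunits at 0.80. Each of the 5 lists lies below 0 in WT 3.

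The median differences between genotypes were -0.57 for the mitochondrial ribosomal proteins (4 lower and 0 higher at an unadjusted p under 0.05 in limma), -0.45 for the TOP list (0 and 0), -0.44 for the proteasome (1 and 2) and -0.13 for ribosome biogenesis (1 and 2). Over all named genes these shares were 16.6% lower and 3.98% higher. None of the genes in these lists passed limma's adjusted threshold. In the TOP list, Eef1b2, an exchange factor of elongation, read 8.21, 7.77 and 6.47 against 6.74, 6.53 and 6.26 (-0.97). In the biogenesis list, Nolc1, a nucleolar chaperone, read 0.19, 1.0 and 1.61 against 2.38, 2.22 and 2.0 (1.27, adjusted p of limma 0.235), opposite to the ribosomal proteins. Of the 43 genes of that list, WT 1 and WT 2 were both above the other 4 livers for 24 and both below for 9. The shares over all named genes were 59.2% and 16.4%. Of 17 measured regulators of ribosomal protein synthesis, 3 lower and 2 higher in the knockout had an unadjusted p under 0.05, beside the same 16.6% and 3.98% over all named genes. For 11 of the 17, WT 1 and WT 2 were both above the other 4 livers (59.2% of all named genes), and for 6 both below (16.4%). Rps6kb1, the S6 kinase that phosphorylates Rps6, read 5.08, 4.85 and 3.59 in WT against 3.24, 3.20 and 3.53 in the knockout (-1.18, adjusted p of limma 0.235). Tsc1, a brake on mTOR, read 4.20, 4.21 and 1.60 against 1.58, 1.08 and 1.28 (-2.02, adjusted p 0.235). In Rps6kb1 and Tsc1, WT 1 and WT 2 were the high livers. Trp53, which encodes the transcription factor p53, read -3.84, -3.57 and -1.11 in WT against -0.54, -0.63 and -1.53 in the knockout (1.94, adjusted p of limma 0.235) by a probe that was well above background on 4 arrays. Rps6kb2, another S6 kinase, was named after its values were seen and read -3.14, -1.86 and 0.46 against 0.33, 0.54 and 0.31 (1.91, adjusted p of limma 0.237), well above background on 5 arrays. In these, the genes higher in the knockout at an unadjusted p under 0.05, WT 1 and WT 2 were the low livers.

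Other measures moved with WT 1 and WT 2 as well. The summed level of 5 of 6 Kupffer cell and macrophage markers, on the log2 scale, was 6.85 and 6.86 in WT 1 and WT 2 and 5.80 to 6.12 in the other 4 livers. That of 5 of 6 stellate markers was 7.22 and 7.07 against 6.05 to 6.44. That of 3 of 5 erythroid markers was 9.40 and 9.44 against 8.39 to 8.63. Marker by marker, WT 1 and WT 2 were both above the other 4 livers for 4 of 5, 4 of 5 and 3 of 3, against 59.2% of all named genes. The macrophage marker Marco read 2.45, 2.09 and 1.21 in WT and 1.86, 2.65 and 3.00 in the knockout. For 1 stellate marker WT 1 and WT 2 were the low livers. The hepatocyte sum was 12.74 and 12.35 against 11.98 to 12.65. The hepatocyte, endothelial, cholangiocyte, lymphocyte, skeletal muscle and exocrine pancreas sums did not place both WT 1 and WT 2 above the other 4. WT 1 and WT 2 were both below the other 4 livers for 3 of 8 hepatocyte and 3 of 6 endothelial markers, against 16.4% of all named genes. For 1 of the 8 and 2 of the 6 they were both above. The 7 probes of Gapdh, 1 transcript, were spread over 9.58 and 7.79 log2 units in WT 1 and WT 2 and over 4.01 to 4.87 in the other 4. Within genes that have several kept probes, the median spread was 2.89 and 2.54 against 1.63 to 1.90 over all genes, but 1.81 and 1.69 against 1.54 to 1.61 over the ribosomal protein genes. The part of these measures in the ribosomal protein values was not tested.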

How the data were processed

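The deposited scanner files hold, per the file headers, 1-colour spot intensity read with Agilent Feature Extraction 10.7.3.1 (background subtracted, low values at a floor) and raw spot and background medians. The authors' series matrix is on a log2 scale: set against the scanner files, each column equals log2 processed intensity plus 1 constant per array, whose choice is unknown. Its column medians were 4.41, 4.17, 4.70, 4.32, 4.44 and 4.52 for WT 1 to 3 and KO 1 to 3. From the 62976 spots of an array, log2 processed intensity minus the 75th percentile of non-control spots was taken, without control spots and spots marked as outliers (357 of 55681 probes lost, no member). No spot was saturated. Probes were named by unversioned accession through RefSeq GRCm38.p6 (26762 of 55681, although symbols in the files had been assumed), while the array was designed on another build. A gene stands for its brightest kept probe.

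Knockout minus WT was fitted with limma 3.58.1 in R 4.3.3 (lmFit, eBayes, two-sided) over 23132 probes, adjusted by Benjamini-Hochberg over all of them. Calling used an adjusted p of 0.05. The script was tested on simulated data. An exact permutation test of 3 against 3 cannot go below p = 0.1. With n = 3 mice a group in the labels, an array counts as 1 animal, and p-values measure the spread between these arrays. Alternatives were another scaling, background correction, filter, probe rule, variance model and leaving out arrays. The members and lists were chosen with earlier results of these data known. Genes were named by rule: the 5 lowest and highest per subunit, the stalk and Rpsa, paralogs, the genes whose probes differ most, the 3 largest and smallest WT SDs, Fau, the edge of the filter, and up to 3 genes of lowest p per other list. Some genes that the rule takes are not reported here.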

Additional observations from a re-analysis of the deposited data

How the results depend on the processing

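No ribosomal protein probe passed limma's adjusted threshold in any alternative but that without WT 3. The median over member probes (-0.66) was -0.16 after quantile normalization, -0.52 with median scaling, -0.64 with normexp and -0.71 with the deposited matrix. It ranged from -1.07 (without WT 3) to -0.31 (without WT 1) when 1 liver was left out, and was 0.16 without WT 1 and WT 2. The median over all kept probes (-0.38) was -0.15 after quantile normalization, -0.24 with median scaling, -0.24 with normexp, -0.44 with the matrix, 0.28 without the filter on dim probes and -0.048 without WT 1 and WT 2, and ranged from -0.57 to -0.26 when 1 liver was left out.

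Member probes lower at an unadjusted p under 0.05 (9) numbered 32 with normexp (16.9% of all features), 5 of 83 with the mean over probes (17.8%), 4 without WT 1 and WT 2 (4.77%), and 4 (without KO 2, 4.75%) to 139 (without WT 3, 45.3%) when 1 liver was left out, beside 15.4% on the scale used throughout. Those higher (1) numbered 2 after quantile normalization, median scaling, normexp and a filter on all 6 arrays, 3 without the filter, and 0 to 5 when 1 liver was left out. All features gave 5.50% to 7.25% in the first 4, 22.2% without the filter and 1.57% to 17.7% when 1 liver was left out. Probes past the adjusted threshold numbered 0 to 136 when 1 liver was left out, the 136 without WT 3, where 56.7% of all probes passed. Genes whose groups did not overlap (4) numbered 26 after quantile normalization, 13 with normexp, 9 with the mean over probes, 52 without WT 1 and WT 2, where 1 WT liver remains, and 4 to 80 when 1 liver was left out. All named genes gave 25.5% as reported, 25.4%, 25.7%, 26.1% and 59.4% in these alternatives, and 28.2% to 78.8% when 1 liver was left out. The causes were not tested.

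Among named genes, quantile normalization turned Rpl22l1 (0.18) and Rpl36al (0.022). The matrix turned Rpl21 (-0.0077) and Rps2 (-0.015), and the mean over probes Rpl21 (-0.83), Rps2 (-0.43) and Rps18 (0.045). When 1 liver was left out, Rps2 ranged from -0.0025 to 0.11, Rpl22l1 from -0.80 to 0.12, Rpl10 from -0.61 to 0.013 and Rpl21 from -0.034 to 0.14. Without WT 1 and WT 2, 20 of 31 named genes turned: Rplp1 0.039, Rpl14 0.46, Rps27a 0.11, Rps19bp1 0.0007, Rplp0 0.21, Rplp2 0.58, Rpsa 0.36, Rpl7l1 0.053, Rpl22l1 0.49, Rpl36al 0.58, Rps4l 0.70, Rps27l 0.21, Rpl7 0.0695, Rpl10 0.35, Rpl22 0.37, Rpl36a 0.41, Rpl39 0.16, Rps27 0.39, Rps18 0.12 and Fau 0.44. Without WT 3, 25 of 31 passed the adjusted threshold, against 56.7% of all probes, and some of the 31 were named for extreme values in these data.

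The labels do not say whether replicate numbers pair the livers. Deviations of same-numbered WT and KO livers correlated at -0.13, 0.01 and -0.04, and those of differently numbered livers at -0.20 to 0.22. Deviations from a mean of 3 livers cannot decide the question. With the replicate number as a block, 0 member probes passed and no named gene changed its call. At an unadjusted p under 0.05, limma then gave 9 member probes lower (12.6% of all probes) and 1 higher (7.38%).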
